A study of Mus musculus with 12 samples.

Results

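The smooth muscle contractile and cytoskeletal genes are described here in thoracic aortas of mice whose vascular smooth muscle carries a dominant-negative PPARγ. The set was listed by name, from contractile proteins, the actin and intermediate filament cytoskeleton and the dystrophin complex to the transcription factor Srf and its partner Myocd. A gene entered through a row of the array annotated with its symbol alone, and the brightest row was used where there were several. By this rule 37 of 39 listed genes were measured, out of 19687 named genes in all. Flna and Tagln2 lay only on rows shared with other genes and were dropped.

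The P467L group was 7 male mice carrying a transgene for human PPARγ with the P467L mutation, which makes the receptor dominant negative; PPARγ is a nuclear receptor that regulates genes when bound by lipid ligands. The smooth muscle myosin heavy chain promoter drives it in vascular smooth muscle. The nontransgenic group was 5 male littermates without the transgene, and all mice were of the C57BL/6 strain, of ages that the labels do not give. Each thoracic aorta came from 1 mouse and went on 1 Affymetrix mouse exon array (the 1.0 ST design), and values are log2 intensities. The mouse Pparg row averaged 6.82 ± 0.24 (SD, n = 7) in P467L and 6.81 ± 0.19 (SD, n = 5) in nontransgenic aorta, and no source used here says whether its probes also read the human sequence.

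Smooth muscle cells contract when calcium and calmodulin activate myosin light chain kinase, which lets smooth muscle myosin pull on filaments of smooth muscle α-actin. Calponin, caldesmon and tropomyosin sit along those filaments, while desmin and vimentin filaments, dense plaque adaptors and the dystrophin complex tie them to the cell's edge. Many of these genes are switched on by SRF, which binds a DNA element called the CArG box, together with the coactivator myocardin. Besides genes of the differentiated, contractile cell, the set holds nonmuscle cytoskeletal genes such as Myh9, Myh10, Cnn2 and Vim. The question is whether these genes differ between P467L and nontransgenic aortas.

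None of the 37 genes passed a limma adjusted p under 0.05, with adjustment over all 19687 genes, in either direction. Over all genes 0.117% passed as higher in P467L and 0.127% as lower. The typical difference was small: the median over the set was 0.01 on the log2 scale, beside 0.0013 over all genes, and the median size regardless of sign was 0.07 in the set and 0.07 over all genes. In the set 20 genes had a positive and 17 a negative difference. At an unadjusted p under 0.05 there were 4 genes, which is 10.8% of the set, beside 4.82% of all genes. Desmin (Des) and α-sarcoglycan (Sgca) were the 2 with higher values in P467L, where 2.45% of all genes met this level, and nonmuscle myosin IIB (Myh10) and the Z-disc protein Ldb3 the 2 with lower values, where 2.37% did. In Des and Myh10 the groups did not overlap, 2 of 37 genes or 5.41%, beside 0.726% of all genes (0.376% with P467L above and 0.35% with P467L below). The genes were chosen with results of these arrays known, so these shares are a description.

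**Figure D1:**
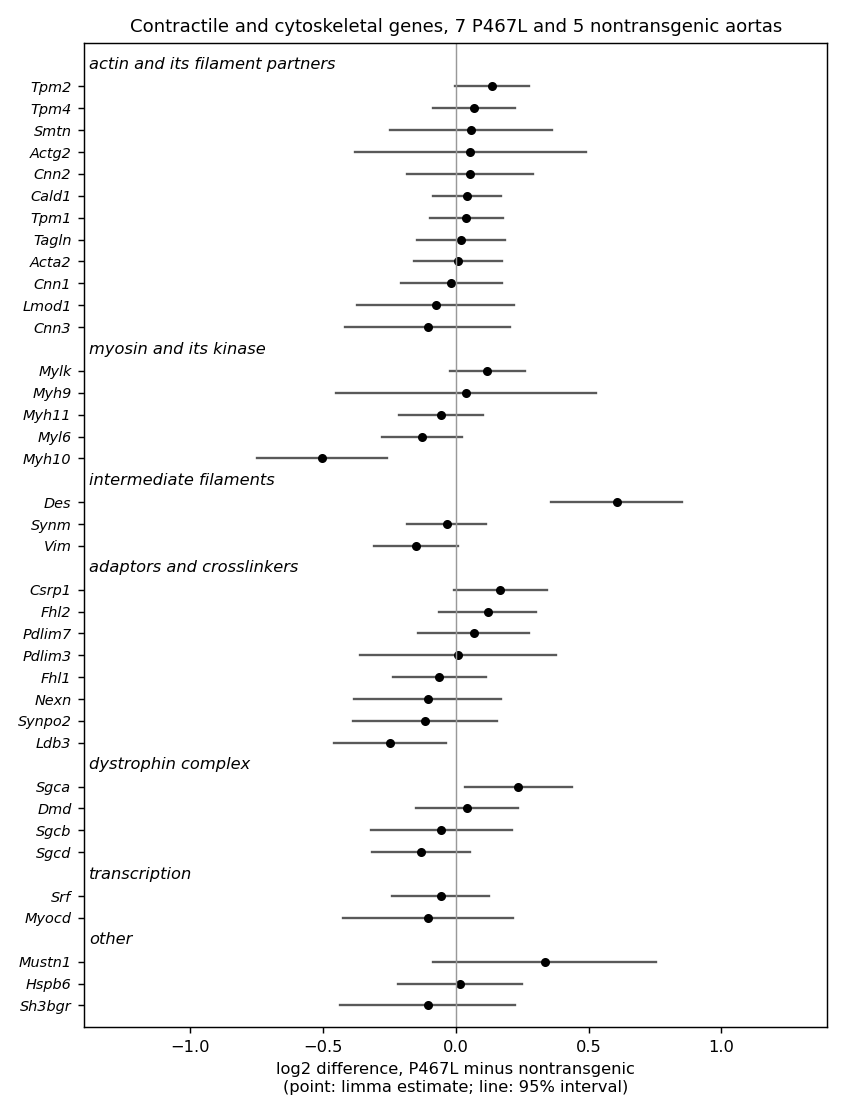
Log2 difference between P467L (n = 7) and nontransgenic (n = 5) aortas for each of the 37 genes, grouped by role; points are limma estimates and lines unadjusted 95% intervals. The intervals of Des, Sgca, Myh10 and Ldb3 leave out 0, and those of the actin filament genes all include it.

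Both groups have replicates 1 to 5, so differences were also taken within each number. They had 1 sign in all 5 pairs for 9 of the 37 genes, or 24.3%, beside 10.9% of all genes. Des, Tpm2 and Csrp1 were the 3 with positive differences, and Myh10, Ldb3, Vim, Cnn3, Synpo2 and Myh11 the 6 with negative ones. The sign counts however small the difference is: Myh11 was at -0.0013 for replicate 2 and Tpm2 at 0.0038 for replicate 3. With the replicate number as a block none of the 37 passed, and the smallest limma adjusted p were 0.0712 for Myh10, 0.123 for Des and 0.337 for Ldb3. P467L replicates 6 and 7 have no nontransgenic partner, so the difference in that fit rests on the 5 pairs alone.

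The precision of these comparisons was enough to bound most genes. For 33 of the 37 genes the 95% interval of the difference lay within 0.5 log2 units of 0, and 32 differed by less than 0.2. The same counts were not made over all genes, so they do not set these genes apart. The SE of the difference ran from 0.06 to 0.23, with a median of 0.09 against 0.11 over all genes. An interval that includes 0 does not show that a gene is equal in both groups. Since whole aortas were measured, fewer cells of a type and less RNA per cell cannot be told apart. All 37 genes had means above 5.18 in both groups, the level under which 95% of 919 olfactory and vomeronasal receptor genes lay.

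The genes of transcriptional control in the set, Srf and Myocd, did not pass the test. Srf, serum response factor, had a lowest value of 6.28, a median of 6.37 and a highest of 6.62 in P467L aorta, against 6.53, 6.64, 6.55, 6.38 and 6.45 in the 5 nontransgenic aortas. The groups overlapped, although 4 of the 7 P467L mice lay under every nontransgenic mouse, and the difference was -0.06 ± 0.08 (SE). Myocd, myocardin, the smooth muscle and cardiac coactivator of SRF, ran from 8.04 over a median of 8.35 to 8.66 in P467L, against 8.32, 8.59, 8.58, 8.79 and 7.97 in nontransgenic aorta. Its difference was -0.10 ± 0.15, and the highest and lowest of all 12 values both belonged to nontransgenic mice.

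RefSeq's promoter table (build GRCm38.p6, 250 bases before to 50 after each start) held 31 of the 37 genes, with 39 promoters. It was searched for the CArG box, a CC followed by 6 bases of A or T and a GG. This pattern, though not each single box, is the same on both strands. At least 1 box was found for 7 of the 31 genes, or 22.6%, against 1.81% of the 27025 genes in the table. The 7 were Srf itself, Cnn2, Myl6, Ldb3, Fhl1, Fhl2 and Dmd. The table had no entry for Myh11, Tagln, Myocd, Actg2, Sh3bgr and Nexn. The 120 bases before the start are shown for the 7 genes, since these windows hold a match to SRF's element, with each CArG box in capitals. Fhl2 has a box in each of its promoters, and Srf has 2 in the same promoter, beginning 82 and 62 bases before its start.
Srf (chr17:46556163-46556282, minus strand): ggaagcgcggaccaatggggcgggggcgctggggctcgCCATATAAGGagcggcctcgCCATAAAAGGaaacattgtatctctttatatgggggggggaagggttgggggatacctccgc
Cnn2 (chr10:79988480-79988599, plus strand): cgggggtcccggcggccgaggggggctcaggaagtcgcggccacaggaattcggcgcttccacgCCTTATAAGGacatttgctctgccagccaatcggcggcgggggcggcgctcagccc
Myl6 (chr10:128493010-128493129, minus strand): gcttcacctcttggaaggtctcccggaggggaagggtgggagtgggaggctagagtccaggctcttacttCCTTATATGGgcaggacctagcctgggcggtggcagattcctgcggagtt
Ldb3 (chr14:34588682-34588801, minus strand): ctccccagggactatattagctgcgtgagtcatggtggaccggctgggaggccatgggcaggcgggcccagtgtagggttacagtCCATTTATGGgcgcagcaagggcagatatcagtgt
Fhl1 (chrX:56779563-56779682, plus strand): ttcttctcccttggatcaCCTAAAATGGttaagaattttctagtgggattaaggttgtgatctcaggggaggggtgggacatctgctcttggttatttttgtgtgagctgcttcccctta
Fhl2, first promoter (chr1:43196762-43196881, minus strand): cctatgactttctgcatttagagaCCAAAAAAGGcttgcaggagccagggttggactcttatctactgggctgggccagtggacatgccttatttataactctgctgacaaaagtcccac
Fhl2, second promoter (chr1:43163962-43164081, minus strand): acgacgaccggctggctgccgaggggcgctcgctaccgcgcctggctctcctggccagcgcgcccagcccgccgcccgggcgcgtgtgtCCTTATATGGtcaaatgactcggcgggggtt
Dmd (chrX:82948750-82948869, plus strand): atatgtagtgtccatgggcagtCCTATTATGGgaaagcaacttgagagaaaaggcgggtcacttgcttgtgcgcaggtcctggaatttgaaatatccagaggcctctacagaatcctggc

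None of the 7 genes with a box passed the test. Their differences ran from -0.25 for Ldb3 to 0.12 for Fhl2, with a median of -0.06, and the 24 genes whose promoters held no box had a median of 0.03. The search also covered the PPAR response element, AGGTCANAGGTCA, a pair of direct repeats spaced by 1 base, on both strands. It was found in 0 of the 31 genes, which have 39 promoters, and in 0.0396% of all 32851 promoters. At so low a share, finding none in so few promoters says little about these genes. A match is only a run of letters, and its absence says that these letters are not in this window. The same 120 bases of Des and Myh10, the members with the smallest p in each direction, hold no exact CArG box and are shown for comparison.
Des (chr1:75360172-75360291, plus strand): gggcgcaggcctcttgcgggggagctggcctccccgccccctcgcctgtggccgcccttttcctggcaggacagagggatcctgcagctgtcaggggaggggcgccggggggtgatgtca
Myh10 (chr11:68691795-68691914, plus strand): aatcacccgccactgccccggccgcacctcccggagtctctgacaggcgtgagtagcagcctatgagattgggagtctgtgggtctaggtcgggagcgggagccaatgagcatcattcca

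Actin and the proteins along its filament came to 12 measured genes, of which 0 passed the test in either direction. Acta2, smooth muscle α-actin, had a lowest value of 11.52, a median of 11.79 and a highest of 11.84 in P467L aorta, against 11.72, 11.82, 11.56, 11.87 and 11.73 in nontransgenic aorta. The groups covered nearly the same range. The difference was 0.01 ± 0.08 (SE), with a 95% interval from -0.16 to 0.17, or 0.896 to 1.13 as a fold. The other classical markers of contractile smooth muscle lay as close: Tagln, transgelin, differed by 0.02 ± 0.08, and Cnn1, smooth muscle calponin, by -0.02 ± 0.09. Smtn, smoothelin, differed by 0.06 ± 0.14 and Lmod1, the actin-nucleating leiomodin of smooth muscle, by -0.08 ± 0.14. Cald1, caldesmon, which inhibits the myosin ATPase on actin, differed by 0.04 ± 0.06, the smallest SE of the set.

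Tpm2, β-tropomyosin, was the actin filament gene with the smallest p. It ran from 10.90 over a median of 11.07 to 11.19 in P467L, against 10.95, 10.92, 10.89, 10.95 and 10.89 in nontransgenic aorta. Thus 6 of 7 P467L mice lay above every nontransgenic mouse, but the difference was only 0.14 ± 0.06 (limma adjusted p = 0.999). The other tropomyosins differed by 0.04 ± 0.06 for Tpm1 and 0.07 ± 0.07 for Tpm4. Cnn2 and Cnn3, the calponins of nonmuscle and mixed tissues, differed by 0.05 ± 0.11 and -0.11 ± 0.14. A second, much dimmer row of Cnn3, under the background level at a mean of 3.79, differed by 0.76 ± 0.35. Actg2, the γ-actin of enteric smooth muscle, differed by 0.06 ± 0.20, with a wide interval from -0.38 to 0.49.

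The myosins and their kinase were 5 genes, and Myh10 was the one that stood furthest from 0. Myh10 encodes nonmuscle myosin heavy chain IIB, known as a marker of immature smooth muscle. It had a lowest value of 8.50, a median of 8.92 and a highest of 8.98 in P467L aorta, against 9.57, 9.51, 9.01, 9.54 and 9.24 in nontransgenic aorta. Every P467L mouse lay under every nontransgenic mouse, though the closest values, 8.98 and 9.01, nearly met. The difference was -0.50 ± 0.11 (SE; 95% interval -0.75 to -0.26), a fold of 0.706, and it did not pass the test (limma adjusted p = 0.154). Within the 5 replicate numbers that both groups share, the difference of P467L minus nontransgenic was -0.65, -0.53, -0.51, -0.67 and -0.33. A second row of Myh10, under background at a mean of 3.70, differed by -0.04 ± 0.12, and the mean over both rows by -0.27 (limma adjusted p = 0.411).

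Myh11, the smooth muscle myosin heavy chain, is the mouse gene whose promoter type drives the transgene. It ran from 11.67 over a median of 11.77 to 11.96 in P467L, against 11.95, 11.91, 11.74, 11.79 and 11.90 in nontransgenic aorta. The groups overlapped, and the difference was -0.06 ± 0.07, with a 95% interval from -0.21 to 0.10. Mylk, myosin light chain kinase, ran from 9.23 over a median of 9.36 to 9.51 in P467L, against 9.29, 9.25, 9.19, 9.17 and 9.28 in nontransgenic aorta. Although 5 of 7 P467L mice lay above every nontransgenic mouse, the difference was 0.12 ± 0.07 and did not pass (limma adjusted p = 0.999), and a dim second row at a mean of 4.61 differed by -0.42 ± 0.34. Myl6, the essential light chain, ran from 7.60 over a median of 7.83 to 7.91 in P467L, against 8.02, 7.91, 7.91, 7.99 and 7.82 in nontransgenic aorta. All 7 P467L mice lay under the nontransgenic mean, with a difference of -0.13 ± 0.07 that did not pass (limma adjusted p = 0.999), and its second row differed by -0.02 ± 0.20. Myh9, nonmuscle myosin heavy chain IIA, differed by 0.04 ± 0.23 and had the largest SE of the set.

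Of the 3 intermediate filament genes, Des came closest to the threshold of the whole set. Des encodes desmin, the muscle intermediate filament protein. It had a lowest value of 5.92, a median of 6.28 and a highest of 6.52 in P467L aorta, against 5.74, 5.68, 5.36, 5.62 and 5.68 in nontransgenic aorta. Every P467L mouse lay above every nontransgenic mouse. The difference was 0.61 ± 0.11 (SE; 95% interval 0.36 to 0.85), a fold of 1.52, with a limma adjusted p of 0.0510, just over the threshold. Des was a dim gene, with means of 6.22 in P467L and 5.61 in nontransgenic aorta, beside the background level of 5.18. Within the 5 shared replicate numbers it was 0.19, 0.61, 0.57, 0.82 and 0.49. It passed in 9 of 22 alternative settings with 1 value per gene (limma adjusted p from 0.0235 to 0.157), and did not pass in a fit over all rows of the array (limma adjusted p = 0.426). Leaving out P467L replicate 1 or 3 brought it under the threshold (0.0410 and 0.0361), and leaving out any other array kept it over. Vim, vimentin, ran from 10.08 over a median of 10.32 to 10.41 in P467L, against 10.38, 10.42, 10.34, 10.51 and 10.49 in nontransgenic aorta, a difference of -0.15 ± 0.07 (limma adjusted p = 0.999). Here all 7 P467L mice lay under the nontransgenic mean and 4 under every nontransgenic mouse. Synm, synemin, which copolymerises with both, differed by -0.03 ± 0.07.

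**Figure D2:**
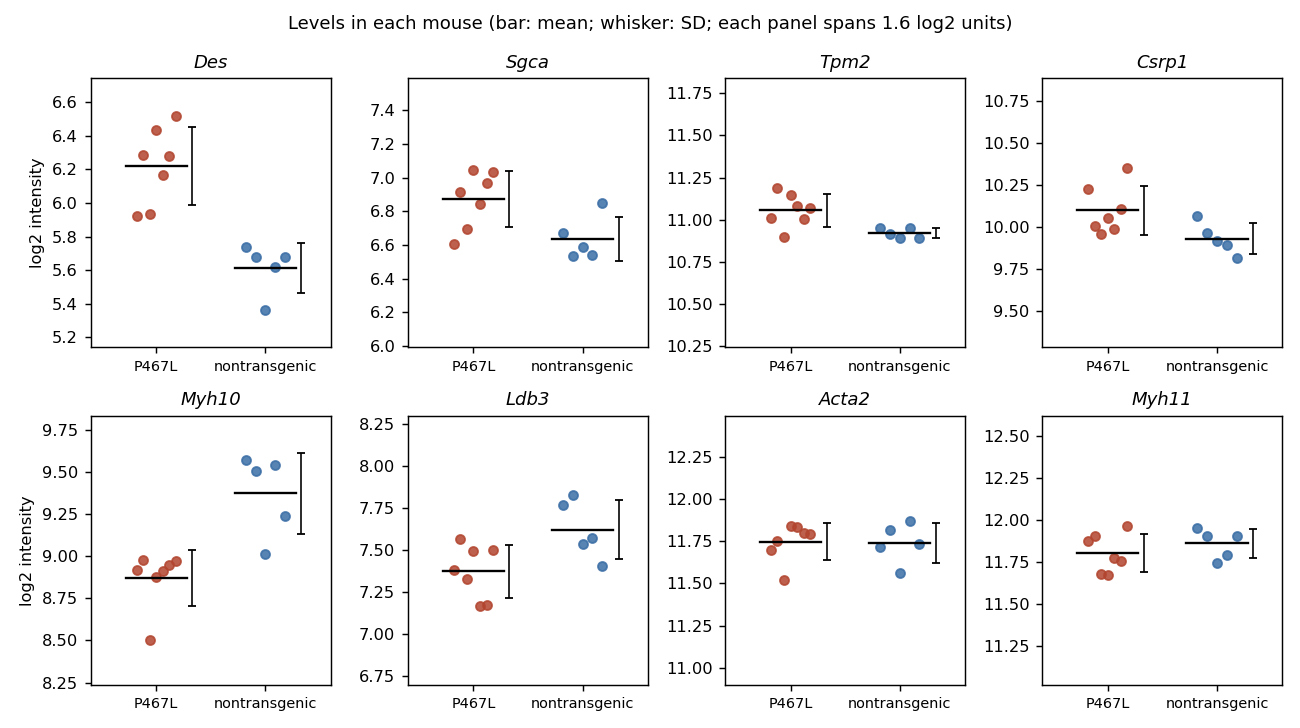
Log2 intensity in each mouse for 8 genes, P467L (n = 7) left and nontransgenic (n = 5) right; bars are means, whiskers SD, and every panel spans the same log2 width. Des and Myh10 show no overlap between the groups, Sgca, Tpm2, Csrp1 and Ldb3 overlap, and Acta2 and Myh11 cover nearly the same range.

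The adaptors and crosslinkers of actin, 8 genes, held none past the threshold. Ldb3, the Z-disc adaptor also called cypher or ZASP, ran from 7.17 over a median of 7.38 to 7.56 in P467L, against 7.77, 7.83, 7.54, 7.57 and 7.41 in nontransgenic aorta. All 7 P467L mice lay under the nontransgenic mean and 4 under every nontransgenic mouse, and the difference was -0.25 ± 0.10 (SE; limma adjusted p = 0.840). With the upper quartile of each array as covariate it was -0.30 ± 0.06 (limma adjusted p = 0.0702). Csrp1, an α-actinin- and zyxin-binding LIM protein, ran from 9.96 over a median of 10.05 to 10.35 in P467L, against 10.07, 9.97, 9.91, 9.89 and 9.81 in nontransgenic aorta. Its difference was 0.17 ± 0.08 (limma adjusted p = 0.999), with 3 of 7 P467L mice above every nontransgenic mouse. The remaining LIM proteins differed by 0.12 ± 0.08 for Fhl2, -0.06 ± 0.08 for Fhl1, 0.07 ± 0.10 for Pdlim7 and 0.01 ± 0.17 for Pdlim3. Fhl2 was dim, with means of 5.40 in P467L and 5.28 in nontransgenic aorta, beside the background level of 5.18. Without P467L replicate 4 it differed by 0.07. Synpo2, myopodin, an actin bundler, differed by -0.12 ± 0.13 and Nexn, the filament-binding nexilin, by -0.11 ± 0.13.

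The dystrophin complex links actin to the basement membrane through dystrophin and the sarcoglycans. Dmd, dystrophin, differed by 0.04 ± 0.09, and a dim second row by 0.18 ± 0.39. Sgca, α-sarcoglycan, known mainly from striated muscle, ran from 6.61 over a median of 6.91 to 7.04 in P467L, against 6.67, 6.54, 6.59, 6.54 and 6.85 in nontransgenic aorta. It was above every nontransgenic mouse in 4 of 7 P467L mice, and its difference was 0.24 ± 0.09 (SE; limma adjusted p = 0.850). Sgcd, δ-sarcoglycan, ran from 7.76 over a median of 8.03 to 8.16 in P467L, against 8.08, 8.04, 8.12, 8.23 and 8.11 in nontransgenic aorta. It lay under every nontransgenic mouse in 4 of 7 P467L mice, with a difference of -0.13 ± 0.09 (limma adjusted p = 0.999). Sgcb, β-sarcoglycan, differed by -0.05 ± 0.12. Of the remaining genes, Hspb6, a small heat shock protein phosphorylated during cyclic nucleotide relaxation, differed by 0.02 ± 0.11, Sh3bgr by -0.11 ± 0.15 and Mustn1, a small protein of the musculoskeletal system, by 0.33 ± 0.20.

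Mice of the same genotype differed more from each other in some of these genes than the genotypes did. The widest spread within groups was that of Myh9 (pooled SD 0.44), Actg2 (0.39), Mustn1 (0.37) and Pdlim3 (0.32), against a median of 0.15 over the set and 0.19 over all genes. Mustn1 took values in 2 separate ranges in both groups. In P467L aorta it lay between 10.40 and 10.67 on replicates 1, 2 and 3 and between 11.20 and 11.30 on the other 4 arrays. In nontransgenic aorta it lay between 10.33 and 10.43 on replicates 1, 2 and 3 and at 10.89 and 10.98 on replicates 4 and 5. Myh9 ran the opposite way on the same arrays, with 8.39 to 8.62 against 7.46 to 7.86 in P467L and 8.10 to 8.32 against 7.50 and 7.60 in nontransgenic aorta. Actg2 followed Mustn1 in P467L, at 8.83 to 9.20 and 9.65 to 10.0002, and in nontransgenic aorta, at 9.06 to 9.41 and 9.60 to 9.77. The labels do not say what the replicate numbers mark. The upper quartile of the whole array moved in part with this pattern: it was 6.15, 6.10 and 6.24 on P467L replicates 1, 2 and 3 and 6.25 to 6.38 on the other P467L arrays. In nontransgenic aorta it was 6.20, 6.16 and 6.32 on replicates 1, 2 and 3 and 6.35 and 6.38 on replicates 4 and 5. As deviations from the group means, its correlation was 0.754 with Mustn1, 0.687 with Actg2 and -0.696 with Myh9. The median size of this correlation over all genes was 0.548. What causes the pattern was not tested, and values with the upper quartile as covariate are in the closing section. With the replicate number as a block, Mustn1 differed by 0.22, Actg2 by -0.09 and Myh9 by 0.15 (limma adjusted p = 0.448, 0.823 and 0.559).

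**Figure D3:**
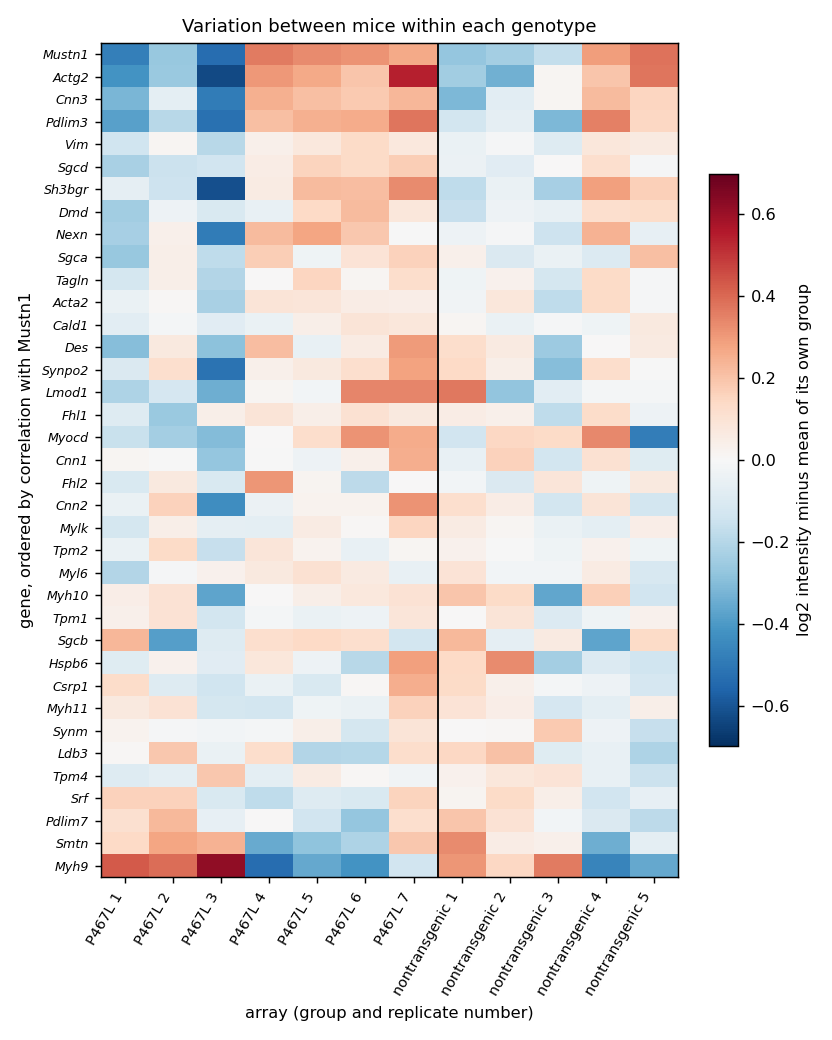
Log2 intensity minus the mean of the gene's own group for the 37 genes on 12 arrays, P467L left of the black line and nontransgenic right of it; red is above and blue below the group mean. Mustn1, Actg2, Cnn3 and Pdlim3 are mostly blue where Myh9 is red, with Actg2 and Cnn3 near white on nontransgenic replicate 3, while Cald1, Tpm1 and Mylk are pale throughout.

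**Figure D4:**
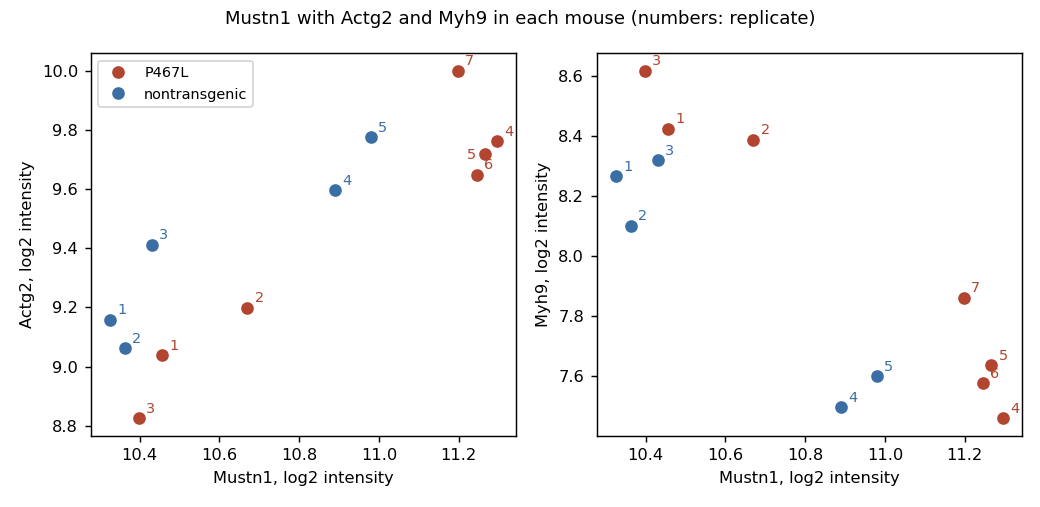
Log2 intensity of Actg2 and of Myh9 plotted against Mustn1 in each mouse, with replicate numbers beside the points; red is P467L (n = 7) and blue nontransgenic (n = 5). Both genotypes occupy a low and a high range of Mustn1, 10.33 to 10.67 and 10.89 to 11.30 over all mice.

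The contractile genes were not alike in this spread. The pooled SD was 0.06 for Cald1, 0.08 for Tpm1, Tpm2 and Mylk, 0.10 for Myh11, 0.11 for Acta2 and Tagln and 0.14 for Cnn1, but 0.25 for Lmod1 and 0.26 for Smtn, above the median gene of the array. Of the 37 genes, 15 had a larger spread than the median gene of the array.

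Other genes of the same pathways were counted from 4 lists of 59 entries, of which 49 were measured, and 0 passed the test in either direction. At an unadjusted p under 0.05 there were 5, or 10.2%, beside 4.82% of all genes. Among 12 regulators of contraction, Myl12b, a regulatory myosin light chain, differed by -0.26 ± 0.10. Their 12 differences ran from -0.26 to 0.21 with a median of -0.05. Among 12 partners and regulators of SRF, Gata6 differed by -0.12 ± 0.06 and Klf5, a zinc finger factor of activated smooth muscle, by 0.16 ± 0.11, with a list median of -0.05. Among 7 further genes of the dystrophin complex, Dtnb, β-dystrobrevin, differed by 0.16 ± 0.07 and Utrn, utrophin, by 0.15 ± 0.07, with a list median of 0.01. Among 18 further actin scaffold genes, Zyx, the focal adhesion protein zyxin, differed by -0.29 ± 0.10. Sorbs2, an adaptor of α-actinin and vinculin, differed by 0.46 ± 0.17. The 18 differences of this list ran from -0.54 to 0.46 with a median of 0.02. The limma adjusted p of these 7 named genes lay between 0.720 and 0.999.

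Levels of marker genes are given next for the cell types an aorta can hold. The 6 smooth muscle markers, all of them members of the set, had a mean level per array of 10.37 to 10.71 in P467L and 10.44 to 10.65 in nontransgenic aorta, and all 6 were above background. Desmin, Sgca and Ldb3 are also genes of striated muscle, so its markers are given beside them. The 12 measured skeletal muscle markers, 8 of them above background, had a mean level of 5.21 to 8.005 in P467L and 5.09 to 5.78 in nontransgenic aorta, and 0 passed the test. P467L replicate 4 alone was at 8.005, and the other 6 P467L arrays reached at most 5.42. Without that array Des differed by 0.57 (limma adjusted p = 0.110), Sgca by 0.21, Ldb3 by -0.27 and Myh10 by -0.50. With the skeletal muscle score as a covariate Des differed by 0.57 (limma adjusted p = 0.0961). The 7 measured cardiac markers, 4 above background, had a mean level of 5.11 to 5.49 in P467L and 5.15 to 5.35 in nontransgenic aorta, and 1 passed, Tnnt2, cardiac troponin T, which rose by 0.82 ± 0.09 (limma adjusted p = 0.00192). The part of cardiac muscle genes in the Des difference was not tested. Fibroblast markers (8 measured) lay between 8.01 and 8.20 in P467L and 7.92 and 8.28 in nontransgenic aorta. Endothelial markers (7 measured) lay between 6.78 and 6.92 in P467L and 6.65 and 6.88 in nontransgenic aorta. The 5 adipocyte markers covered 6.18 to 6.79 in P467L and 6.41 to 6.89 in nontransgenic aorta, the 4 brown adipocyte markers 6.68 to 8.73 in P467L and 7.48 to 8.78 in nontransgenic aorta, and the 6 macrophage markers 5.84 to 6.24 in P467L and 5.88 to 6.31 in nontransgenic aorta. None of these 5 lists had a member past the threshold.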

How the data were processed

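Total RNA of each aorta was amplified with a NuGen kit from about 50 ng, per the labels' protocols. The deposited table holds log2 intensities. Affymetrix Power Tools, RMA (background correction, normalization across arrays and probe summary) and the mm9 build were used, per the submitters' processing notes, without versions. RMA compresses differences between dim genes. The table held 101175 rows, of which 22754 had 1 gene symbol in the platform annotation, 1522 several and 76899 none there. By Entrez ID 22245 rows matched RefSeq (GRCm38.p6), which changed 0 symbols; chromosome positions are given only for RefSeq promoters.

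P467L minus nontransgenic was fitted in limma 3.58.1 (R 4.3.3; lmFit, eBayes) over 19687 genes, 12 arrays and no covariate, with Benjamini-Hochberg adjustment over all genes. The fit was run on simulated data with known shifts and independent noise for each gene and array. That noise lacks the shared deviations of these arrays, so the run does not test their effect. Array medians lay between 4.74 and 4.79; precision depends on how many arrays there are. Members and lists were chosen with earlier results of these data known. Genes given in full were the 5 smallest p in each direction, Acta2, Myh11, Srf, Myocd and any gene with an array far from its group; from each related list, the 2 smallest p, of which 1 is not reported here.

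Arrays of the same replicate number deviated together from their group means (correlations 0.227 to 0.398 over genes for 5 numbers). Both groups carry these numbers, and the labels do not say what they mark. They were used to pair arrays in a second fit, with the number as a block. Differences, SEs and adjusted p are from the fit without it unless another fit is named. Those of second rows are from a fit over all rows of the array. In it the row used for Myh10 had an SE of 0.13, beside 0.11 in the fit by gene. For 3 of the 5 numbers the best-correlated array was the pair's own. The block fit changed no call among the genes described here. Alternatives are given in the closing section.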

Additional observations from a re-analysis of the deposited data

Results flagged for a closer look

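Myh10 in P467L aorta had 1 array far below the rest: P467L replicate 3 was at 8.50, and the remaining 6 had 8.88 to 8.98. Nontransgenic replicate 3 was also the lowest of its group, at 9.01. Without P467L replicate 3 Myh10 differed by -0.44 (limma adjusted p = 0.178).

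The mean level of skeletal muscle markers in P467L aorta was set apart by P467L replicate 4, at 8.005, with 5.21 to 5.42 on the remaining 6 arrays. Over 106 groups of values examined, 2 had such an array, and chance gives about 1 in 20.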

How the results depend on the processing

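Over all genes 23 passed as higher in P467L and 25 as lower. These counts were 14 and 16 with the replicate block, 12 and 12 with the skeletal muscle score as covariate, 4 and 0 over all rows of the array, and 6 and 2 without the 3 arrays least correlated with the rest (an alternative chosen after seeing the data). With quantile normalization 46 were higher and with the upper quartile as covariate 71. Leaving out 1 array gave 7 to 30 higher and 4 to 18 lower. Among the 37 genes the count of higher ones, 0 in the fit as reported, ran from 0 to 1 when 1 array was left out. It was 1, Des, under quantile normalization, array medians, trended and robust variance, array weights, brighter genes only, the mean over the rows of a gene and the upper quartile covariate; the cause was not tested. No gene of the set passed as lower under any of these. With the upper quartile covariate Ldb3 differed by -0.30 and Myh10 by -0.52 (limma adjusted p = 0.0702 and 0.0824).

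Differences near 0 changed sign for 17 genes, the widest of them 0.12 in size. With the replicate block the values were -0.011 for Acta2, -0.0079 for Tagln, -0.092 for Actg2, -0.013 for Cnn2, -0.12 for Pdlim3, -0.017 for Dmd and -0.0022 for Hspb6. With the skeletal muscle covariate they were -0.013 for Acta2, -0.0047 for Actg2 and -0.044 for Pdlim3, and with the upper quartile covariate -0.018 for Smtn, -0.086 for Myh9 and -0.024 for Hspb6. Without the 3 arrays they were 0.021 for Cnn1, -0.012 for Smtn, 0.011 for Myocd, -0.090 for Myh9 and 0.017 for Fhl1. Array weights gave 0.027 for Cnn1 and -0.053 for Myh9, quantile normalization -0.0019 for Pdlim3 and 0.0028 for Synm, and the mean over rows, which takes in dim rows, -0.15 for Mylk and 0.33 for Cnn3; it kept the sign of Myh10 at -0.27. Leaving out 1 array gave -0.037 to 0.046 for Acta2, -0.035 to 0.16 for Actg2, -0.059 to 0.029 for Cnn1, -0.043 to 0.099 for Hspb6, -0.14 to 0.017 for Lmod1, -0.076 to 0.13 for Myh9, -0.071 to 0.096 for Pdlim3, -0.15 to 0.0096 for Sgcb, -0.028 to 0.14 for Smtn, -0.074 to 0.011 for Synm and -0.012 to 0.054 for Tagln.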
